A study of Mus musculus with 14 samples.

Results

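The genes described here are 10 that take part in classical MHC class I antigen presentation in the mouse. They are the heavy chains H2-K1 and H2-D1, the light chain B2m, the peptide transporter subunits Tap1 and Tap2, and the chaperone Tapbp. The others are the immunoproteasome subunits Psmb8, Psmb9, and Psmb10 and the transcriptional activator Nlrc5. All 10 were listed by name for their role in the pathway, with earlier results of these data known. They are 10 of 53801 genes in the files, and all 10 were among the 16287 genes that passed the filter on low counts. RNA-seq was performed on 14 bulk tumors grown from CT26, a colorectal cancer cell line of the Balb/c mouse, after the line had been transduced with a library of DNA barcodes. In every group, 250000 barcoded cells were injected under the skin of each flank of female Balb/c mice aged 6 to 8 weeks, and from day 7 the mice received 5 intraperitoneal doses of 200 µg of antibody at intervals of 3 days. The 5 control IgG tumors (14L, 14R, 16R, 17R, and 20R) came from 4 mice given the isotype antibody, the 5 anti-PD-1 responders (24L, 26R, 30L, 30R, and 35L) from 4 mice, and the 4 anti-PD-1 non-responders (29L, 32R, 33L, and 33R) from 3 mice. Responders and non-responders received the same anti-PD-1 antibody and were told apart by their size at the end of treatment relative to the control tumors, so that the size that named the groups and the RNA were both measured at the end, 3 days after the last dose. The number in a tumor's name was taken to stand for its mouse, and L or R for the flank, which the labels do not state in words. Mice 14, 30, and 33 each gave 2 tumors, and each tumor is counted here as 1 replicate, so that p-values measure the spread between tumors, some of which share a host.

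MHC class I molecules show peptides from inside the cell to CD8 T cells. Proteins are cut into peptides by the proteasome, in which 3 inducible catalytic subunits can take the place of the constitutive ones, and the peptides are then moved into the endoplasmic reticulum by the transporter TAP, loaded onto a heavy chain paired with beta-2 microglobulin with the help of tapasin, and carried to the surface. Interferon gamma, released by activated T cells and NK cells, is a known inducer of all of these genes through factors that include IRF1 and NLRC5, and loss of the pathway is a known route by which tumor cells escape T cells. The comparisons below ask whether these genes differed between tumors that ended small and tumors that ended large under the same antibody, and between each of these and tumors given control IgG.

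Of the 10 genes, 7 lie on chromosome 17, in or near the MHC, 2 lie on chromosome 8, and 1 lies on chromosome 2 (GRCm38, GENCODE M21). Psmb9 (chr17:34181987-34187764, minus strand), Tap1 (chr17:34187553-34197225, plus strand), Psmb8 (chr17:34197721-34201454, plus strand), and Tap2 (chr17:34203527-34216321, plus strand) are neighbors within 34335 bases. The gene models of Psmb9 and Tap1 overlap by 212 bases on opposite strands, and since the use of strand in the counting is not given in the sources used here, reads from that stretch cannot be assigned to either gene with certainty. H2-K1 (chr17:33996017-34000347, minus strand) and H2-D1 (chr17:35262730-35267499, plus strand) lie on either side of this cluster, Tapbp is at chr17:33915899-33929292 (plus strand), B2m at chr2:122147686-122153083 (plus strand), Psmb10 at chr8:105935735-105938444 (minus strand), and Nlrc5 at chr8:94434356-94527272 (plus strand).

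RefSeq promoter windows (GRCm38.p6), from 250 bases before to 50 bases after the start of transcription, were matched by symbol for 8 of the 10 genes: H2-K1, H2-D1, B2m, Tap1, Tapbp, Psmb8, Psmb9, and Psmb10. The windows of H2-K1 (chr17:34000298-34000597, minus strand), H2-D1 (chr17:35262844-35263143, plus strand), and B2m (chr2:122147437-122147736, plus strand) are shown because these 3 genes were the most abundant members per length, and that of Tap1 (chr17:34187306-34187605, plus strand) because it is also the start region of Psmb9. Each is written 5′ to 3′ on the strand of its gene. Capitals mark matches on either strand to an interferon regulatory factor core (AANNGAAA), an interferon-stimulated response element core (GAANNGAAA), a gamma-activated site (TTCNNNGAA), an NF-kappaB site (GGNNNTTCC), or a cAMP response element core (TGACG). The first of these overlaps the second, and AANNGAAA was added after the windows had been read.
H2-K1: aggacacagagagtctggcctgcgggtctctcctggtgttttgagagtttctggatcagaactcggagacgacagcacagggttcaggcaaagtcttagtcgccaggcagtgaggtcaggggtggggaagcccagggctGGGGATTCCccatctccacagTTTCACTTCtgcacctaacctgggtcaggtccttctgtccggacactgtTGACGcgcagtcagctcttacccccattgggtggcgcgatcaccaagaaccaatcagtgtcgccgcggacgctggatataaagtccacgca
H2-D1: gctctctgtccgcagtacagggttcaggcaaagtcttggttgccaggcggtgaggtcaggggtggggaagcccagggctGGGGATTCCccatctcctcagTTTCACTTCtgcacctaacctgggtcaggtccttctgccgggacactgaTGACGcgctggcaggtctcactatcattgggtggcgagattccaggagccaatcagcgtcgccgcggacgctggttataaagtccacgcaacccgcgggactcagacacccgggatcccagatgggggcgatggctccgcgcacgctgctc
B2m: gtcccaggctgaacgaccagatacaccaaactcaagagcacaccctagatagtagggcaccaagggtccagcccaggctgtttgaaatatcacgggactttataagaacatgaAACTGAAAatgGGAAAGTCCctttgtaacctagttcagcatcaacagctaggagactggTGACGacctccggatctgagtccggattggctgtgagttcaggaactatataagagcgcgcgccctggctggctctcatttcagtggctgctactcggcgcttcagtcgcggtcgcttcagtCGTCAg
Tap1: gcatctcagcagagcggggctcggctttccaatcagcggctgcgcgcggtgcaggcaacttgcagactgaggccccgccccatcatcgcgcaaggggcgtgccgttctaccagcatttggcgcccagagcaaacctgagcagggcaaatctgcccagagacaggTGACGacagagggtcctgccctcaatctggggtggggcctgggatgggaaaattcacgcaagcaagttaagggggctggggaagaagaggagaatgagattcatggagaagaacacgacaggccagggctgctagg

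The H2-K1 and H2-D1 windows share the same 3 marked matches in the same order, an NF-kappaB match followed by the interferon-stimulated response element core and the cAMP element core, and their longest run of identical bases is 47. These matches begin at positions -111, -90, and -41 from the start of transcription in H2-K1 and at -171, -150, and -101 in H2-D1, so that the spacing is equal in both. RefSeq holds a second window for H2-K1 (chr17:34000284-34000583, minus strand), with a start 14 bases downstream, in which they begin at -125, -104, and -55. B2m holds an interferon regulatory factor core at -137, an NF-kappaB match at -126, and its first cAMP element core at -78. The Tap1 window holds 1 cAMP element core, and it shares 275 bases with the window of Psmb9, whose start lies 225 bases away on the other strand. Psmb8 holds a gamma-activated site at -97, and the windows of Tapbp and Psmb10 hold none of the 5 motifs. Of all 32851 windows, 23.9% hold AANNGAAA, 7.52% GAANNGAAA, 8.3% TTCNNNGAA, 18.5% GGNNNTTCC, and 20.8% TGACG, and CCAAT, which is not marked, is in 37.4% of all windows and in those of 6 of the 8 genes. A match describes the letters and does not show that a factor binds there.

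Libraries held 33237744 to 48481461 expected counts, and each member was covered by at least 855 counts in every tumor (Nlrc5), so that counting error was small beside the spread between tumors. Tumor 33R stood apart from the other non-responders, with a chi-square per gene of 135 to 196 against them, while the other pairs of tumors within a group lay between 21.3 and 90.7. Mean fragment length was 277 to 288 bases in the non-responders and 269 to 277 in the responders, without overlap (exact permutation p = 0.00794, two-sided), and its part in the results was not tested. Of 10 markers of colon carcinoma or epithelium, Vil1, Cdx2, and Cldn7 were under 1 CPM in every tumor, whereas Krt20 was at 202 CPM or more. Markers of immune cells moved with the groups: the summed level of 10 T cell markers was 61.9 to 115 CPM in the responders, 35.8 to 42.5 CPM in the non-responders, and 27.9 to 58.2 CPM in the control IgG tumors, and Ptprc, carried by all leukocytes, was at 119 to 196, 78.2 to 95.8, and 76.4 to 104 CPM. Summed macrophage markers were at 2194 to 2708, 1754 to 2211, and 1897 to 2135 CPM in the same order, and dendritic cell markers at 22.7 to 33.8, 13.2 to 15.0, and 12.1 to 18.5 CPM. B and plasma cell markers were at 9.87 to 22.9, 3.73 to 7.17, and 2.70 to 5.36 CPM, without overlap between responders and the others. NK cell markers had medians of 18.2, 13.6, and 9.80 CPM, with non-responder 33R, at 19.3 CPM, within the range of the responders. Fibroblast markers had medians of 3585, 2396, and 2633 CPM, and their ranges overlapped. All 10 T cell, all 10 macrophage, and all 6 dendritic cell markers had higher means in responders than in either other group. In bulk tumors, more cells of a type and more RNA per cell cannot be told apart, so that the class I levels below are sums over cancer cells and the host cells among them. The part of these host cells in the class I results was not tested.

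All 10 class I genes had higher fitted levels in responders than in non-responders, and all 10 in responders than in control IgG tumors, while non-responders and controls lay close together. Levels are CPM, read counts scaled to a common library total, after TMM normalization, which adjusts each library by its typical gene, and a gene is called changed where the edgeR quasi-likelihood test gave an adjusted p (Benjamini-Hochberg over all 16287 genes) under 0.05. Against non-responders, 4 of the 10 members (Tap1, Tapbp, Psmb10, and Nlrc5) rose and 0 fell, where 5.08% of all genes tested rose and 4.82% fell. The median log2 fold change of the 10 was 0.55, against 0.01 over all genes tested. Against control IgG, 6 of the 10 (Tap1, Tap2, Tapbp, Psmb8, Psmb10, and Nlrc5) rose and 0 fell, where 7.88% of all genes rose and 5.3% fell, and the median of the 10 was 0.62, against -0.01. Both comparisons use the same 5 responders, so that they are not independent. Responders did not overlap non-responders in Tapbp, Psmb10, and Nlrc5, which is 3 of 10 members where 6.8% of all genes lay wholly higher, and did not overlap controls in Tap1 and Tap2, 2 of 10 members where 8.34% of all genes lay wholly higher. On the TPM scale, where the median gene itself was shifted by 0.17 on the log2 scale in favor of responders over non-responders, calls over all genes were 1969 higher and 191 lower instead of 827 and 785, and against controls 1522 higher and 305 lower instead of 1284 and 863. All 10 members lay above that shifted median in both comparisons. In TPM, responders lay wholly above non-responders also in H2-K1, H2-D1, B2m, Tap1, and Psmb9, and overlapped them in Tap2 and Psmb8. How many of all genes do so in TPM was not counted.

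The same tumors were high in most members. Responder 24L had the highest CPM in 9 of the 10 genes and responder 30L in the remaining 1, B2m. Responders 30L and 30R, both of mouse 30, were among the 3 highest tumors in 10 and 8 genes, whereas responder 26R was never among them and had a mean rank of 7.8 of 14, below control tumors 14R (6.6) and 14L (7.3) and non-responder 32R (6.5). Control tumor 16R was lowest in 7 genes, non-responder 33R in 2, and control tumor 20R in 1.

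**Figure D1:**
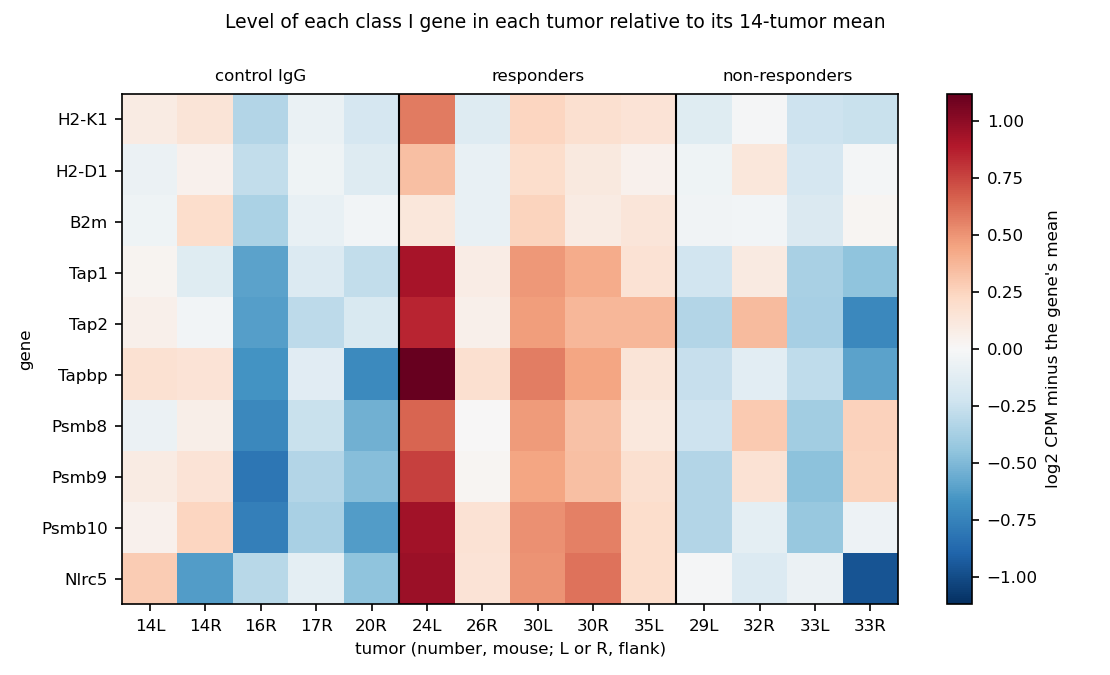
Color gives the log2 CPM of each of the 10 class I genes (vertical axis) in each of the 14 tumors (horizontal axis, by group) minus the mean of that gene over the tumors. Tumor 24L is the darkest red in 9 of 10 genes, control tumor 16R is blue throughout, and in 33R Nlrc5 and the transporter genes are blue while Psmb8 and Psmb9 are red.

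The heavy chains and the light chain, which form the molecule at the cell surface, had the 3 smallest differences of the 10 members between responders and controls. Between responders and non-responders, H2-D1 and B2m differed least, and H2-K1 came after Psmb8. In the sentences of values, tumors are in the order 14L, 14R, 16R, 17R, and 20R for control IgG, 24L, 26R, 30L, 30R, and 35L for responders, and 29L, 32R, 33L, and 33R for non-responders. H2-K1 was at 490.2, 509, 367, 437, and 404 CPM in the control IgG tumors, at 688, 416, 544, 521, and 512 CPM in the responders, and at 419, 455, 392, and 387 CPM in the non-responders. In H2-K1, 4 of the 5 responders lay above every other tumor, and 26R lay among the rest. H2-K1 was not called against non-responders (log2 fold change 0.38, SE 0.13, adjusted p = 0.0798 by edgeR, 95% interval 0.10 to 0.66) nor against controls (log2 fold change 0.28, SE 0.12, adjusted p = 0.151 by edgeR, 95% interval 0.02 to 0.54), although neither interval reached 0. H2-D1 was at 2281, 2465, 1968, 2303, and 2150.5 CPM in the control IgG tumors, at 3015, 2253, 2724, 2568, and 2465 CPM in the responders, and at 2297, 2602, 2092, and 2351 CPM in the non-responders. Groups overlapped in the CPM of H2-D1, with 24L and 30L above every other tumor. In TPM, every responder exceeded every non-responder in H2-D1, the closest values being 1685.5 and 1680.71. The difference was 0.16 on the log2 scale against non-responders (95% interval -0.05 to 0.37, edgeR adjusted p = 0.314) and 0.22 against controls (0.02 to 0.42, edgeR adjusted p = 0.131). B2m was at 2157, 2556, 1739.6, 2101, and 2183 CPM in the control IgG tumors, at 2433, 2095, 2648, 2367, and 2438 CPM in the responders, and at 2166, 2179, 1991, and 2263 CPM in the non-responders. In the CPM of B2m, the light chain paired with the heavy chains, control tumor 14R was second only to responder 30L. The log2 differences in B2m, 0.16 and 0.16, had 95% intervals of -0.06 to 0.37 and -0.05 to 0.36 (edgeR adjusted p = 0.334 and 0.306). H2-K1 and H2-D1 are read with caution, since 3.53% and 5.4% of the 75-base stretches of their transcripts in GENCODE also occur in other genes, chiefly H2-Q10 for H2-K1 and H2-Q1 for H2-D1, and RSEM divides such fragments among the genes. Balb/c mice also carry the d haplotype of the MHC while mm10 is built from C57BL/6, of the b haplotype, and the effect of the alleles on these counts was not tested.

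Among the genes that move peptides into the endoplasmic reticulum and load them, Tap1 and Tapbp rose in responders against both other groups and Tap2 against controls. Tap1 was at 168, 149.9, 109, 148, and 136 CPM in the control IgG tumors, at 312, 174, 231, 219.7, and 184 CPM in the responders, and at 142, 177, 128, and 121 CPM in the non-responders. Tap1 was higher in all 5 responders than in all 5 controls, with non-responder 32R between the lowest responders. Tap1 rose by 1.58-fold against non-responders (log2 fold change 0.66, SE 0.17, adjusted p = 0.0297 by edgeR) and by 1.57-fold against controls (log2 fold change 0.66, SE 0.16, adjusted p = 0.0163 by edgeR). Tap2 was at 153, 144, 95.9, 119.9, and 130.4 CPM in the control IgG tumors, at 266, 153, 203, 191, and 190.5 CPM in the responders, and at 117, 188, 113, and 88.9 CPM in the non-responders. Tap2, the partner of Tap1 in the transporter, was likewise higher in every responder than in every control, but non-responder 32R exceeded responder 26R. Tap2 rose against controls (log2 fold change 0.64, SE 0.19, adjusted p = 0.0395 by edgeR), and its difference from non-responders was 0.66 on the log2 scale with an edgeR adjusted p = 0.0546, just above the threshold. Tapbp was at 331, 328, 185, 269, and 180.3 CPM in the control IgG tumors, at 640.2, 333, 437, 399.7, and 325 CPM in the responders, and at 246, 272, 242, and 195 CPM in the non-responders. Tapbp encodes tapasin, which holds empty class I molecules at the transporter, and all 5 responders lay above all 4 non-responders, while controls 14L and 14R lay within the range of the responders. It showed the largest difference of the 10 members against non-responders, 1.79-fold (log2 fold change 0.84, SE 0.23, adjusted p = 0.0332 by edgeR), and 1.65-fold against controls (log2 fold change 0.72, SE 0.21, adjusted p = 0.0353 by edgeR).

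**Figure D2:**
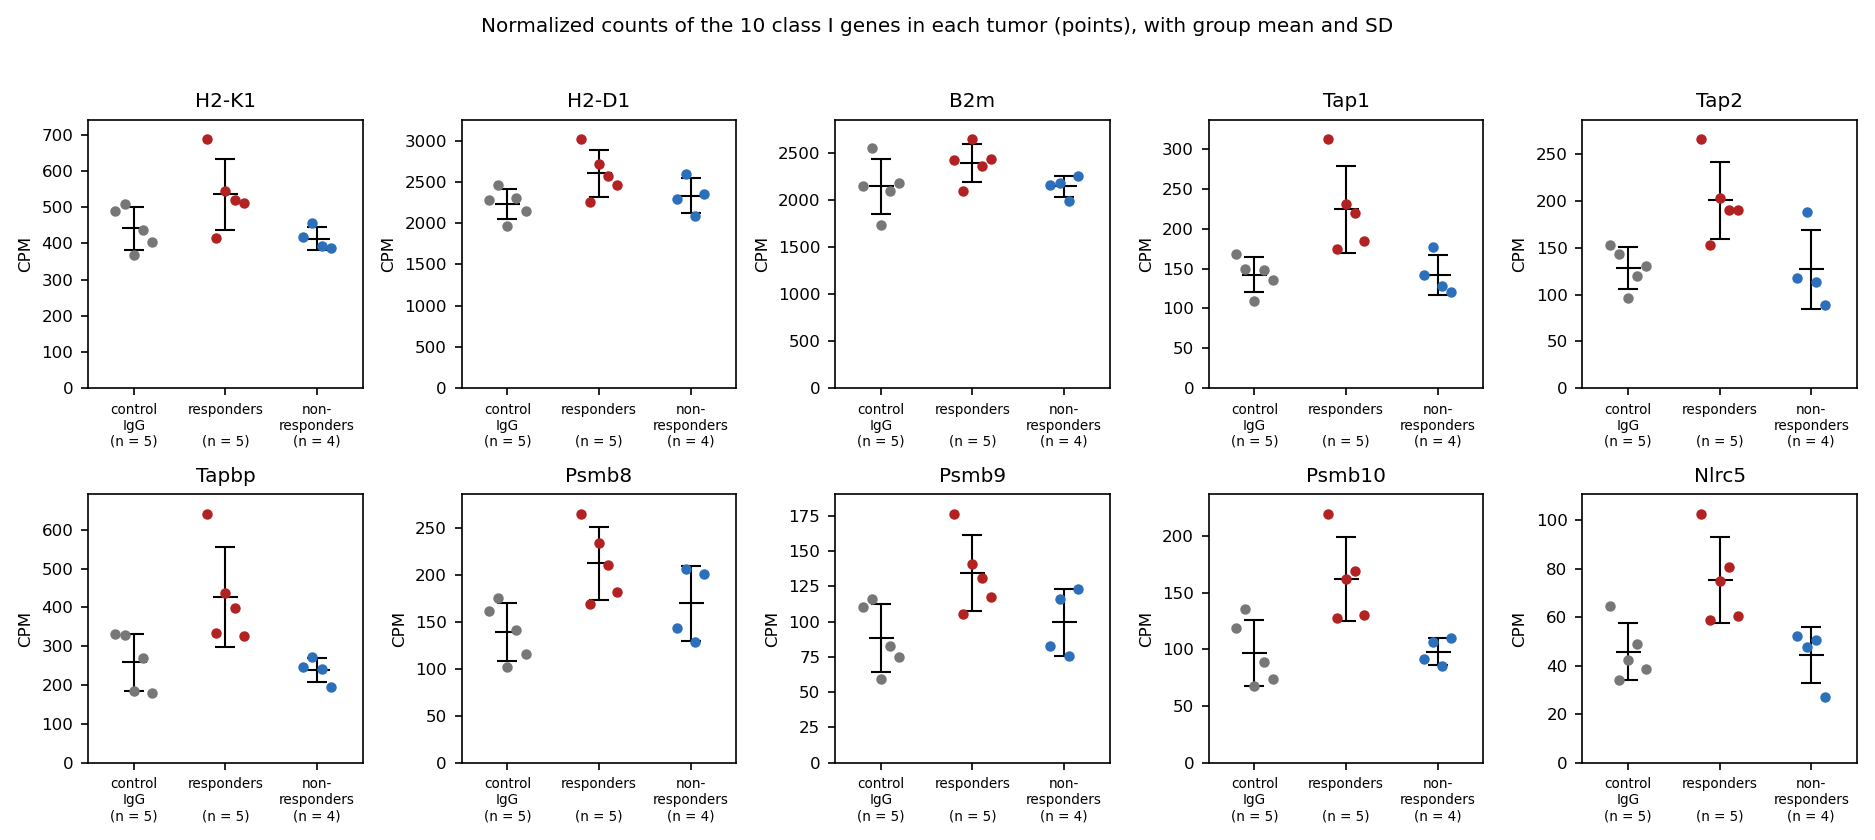
Each panel plots the TMM-normalized CPM of 1 class I gene on its own linear axis from 0, with 1 point per tumor and the mean and SD of each group in black. Responders sit wholly above non-responders in Tapbp, Psmb10, and Nlrc5, while the groups overlap in H2-D1 and B2m.

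The 3 immunoproteasome subunits all had higher means in responders than in controls, of which Psmb8 and Psmb10 passed the test, but the size of their lead over non-responders varied. Psmb10 was at 118, 135, 67.4, 88.7, and 73.9 CPM in the control IgG tumors, at 219, 128, 162, 169, and 131 CPM in the responders, and at 91.2, 106, 85.4, and 109.8 CPM in the non-responders. Psmb10 was higher in all 5 responders than in all 4 non-responders, and control 14R exceeded 2 responders. Psmb10 rose against non-responders (log2 fold change 0.72, SE 0.21, adjusted p = 0.0407 by edgeR) and against controls (log2 fold change 0.74, SE 0.19, adjusted p = 0.0213 by edgeR). Psmb8 was at 161, 176, 102, 142, and 116 CPM in the control IgG tumors, at 265, 169, 235, 211, and 182 CPM in the responders, and at 144, 207, 128, and 201 CPM in the non-responders. In Psmb8, non-responders 32R and 33R lay within the range of the responders, and 29L and 33L within that of the controls. Psmb8 rose against controls (log2 fold change 0.61, SE 0.18, adjusted p = 0.0365 by edgeR), and against non-responders the 95% interval was -0.08 to 0.72 around 0.32 (edgeR adjusted p = 0.283). Psmb9 was at 111, 116, 59.1, 82.5, and 74.8 CPM in the control IgG tumors, at 176, 105, 141, 131, and 117 CPM in the responders, and at 82.9, 116, 75.6, and 123 CPM in the non-responders. Psmb9 followed Psmb8 in CPM, with 32R and 33R again within the range of the responders. In TPM, Psmb9 was at most 116.04 in non-responders and at least 119.88 in responders. Its log2 difference was 0.43 against non-responders (95% interval -0.02 to 0.88, edgeR adjusted p = 0.198) and 0.60 against controls (0.18 to 1.02, edgeR adjusted p = 0.0587), and it was not called in either. Psmb9 was called against controls in 8 of 13 alternatives. These include both that account for shared mice, limma-voom with mouse as a random effect and edgeR with 1 library per mouse. In the random-effect fit the consensus correlation within mice was -0.28, so that tumors of 1 mouse were not treated as more alike. Calls over all genes against controls were 2974 and 2845 in these fits, against 2147 in the main fit.

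Each immunoproteasome subunit was then set against the constitutive subunit whose place it takes, as a ratio of TPM values, which are per length and free of the scaling of the library. The Psmb8 to Psmb5 ratio was 1.48, 1.22, 0.831, 1.28, and 0.875 in the control IgG tumors, 2.54, 1.32, 2.03, 1.94, and 1.62 in the responders, and 1.16, 1.39, 1.20, and 0.982 in the non-responders. Responder 26R lay below non-responder 32R and control 14L, and the other 4 responders lay above all other tumors. The mean was 1.89 ± 0.456 in responders (SD, 5 tumors), 1.18 ± 0.166 in non-responders (4 tumors), and 1.14 ± 0.277 in controls (5 tumors). The Psmb9 to Psmb6 ratio was 0.615, 0.515, 0.310, 0.454, and 0.365 in the control IgG tumors, 0.962, 0.581, 0.811, 0.700, and 0.642 in the responders, and 0.458, 0.528, 0.410, and 0.383 in the non-responders. The Psmb10 to Psmb7 ratio was 0.786, 0.701, 0.464, 0.579, and 0.455 in the control IgG tumors, 1.49, 0.805, 0.986, 1.03, and 0.771 in the responders, and 0.544, 0.647, 0.590, and 0.530 in the non-responders. In both of these ratios every responder exceeded every non-responder, and control 14L lay above the lowest responder. Mean Psmb9 to Psmb6 ratios were 0.739 ± 0.151, 0.445 ± 0.0636, and 0.452 ± 0.121 (SD) in responders, non-responders, and controls, and mean Psmb10 to Psmb7 ratios were 1.02 ± 0.288, 0.578 ± 0.0528, and 0.597 ± 0.145 (SD). On the log2 scale, responders exceeded non-responders by 0.65, 0.72, and 0.78 in the 3 ratios (two-sided exact permutation test, adjusted p = 0.0357, 0.0286, and 0.0286 over 9 tests). They exceeded controls by 0.73, 0.73, and 0.76 (exact permutation test, adjusted p = 0.0286 in each). Non-responders differed from controls by 0.08, 0.01, and -0.02 (exact permutation test, adjusted p = 0.898 or higher). The smallest p that these group sizes allow is 0.00794, and with the tumors of a mouse averaged to 1 value no ratio passed (adjusted p = 0.103 to 0.129 by exact permutation for the comparisons with responders). Without responder 24L, 30L, 30R, or 35L, none of the 6 comparisons with responders passed either (exact permutation, adjusted p = 0.0571 to 0.0857). Against non-responders, all 3 ratios were also lost without 33R, and Psmb8 to Psmb5 and Psmb10 to Psmb7 without 29L, 32R, or 33L. Leaving out a responder or a non-responder raises the smallest p possible against non-responders. A lost call there need not mean a smaller difference. The log2 differences from non-responders shrank in all 3 ratios without 24L or 33R, to 0.539, 0.619, and 0.63 without 24L. They grew in all 3 without 26R, 35L, or 32R, to 0.701, 0.765, and 0.867 without 35L. They went both ways without 30L, 30R, 29L, or 33L. Among the constitutive subunits themselves, none was called, and Psmb5, Psmb6, and Psmb7 were lower in responders than in non-responders by fitted log2 values of -0.36, -0.31, and -0.19 (edgeR adjusted p = 0.134, 0.156, and 0.295).

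**Figure D3:**
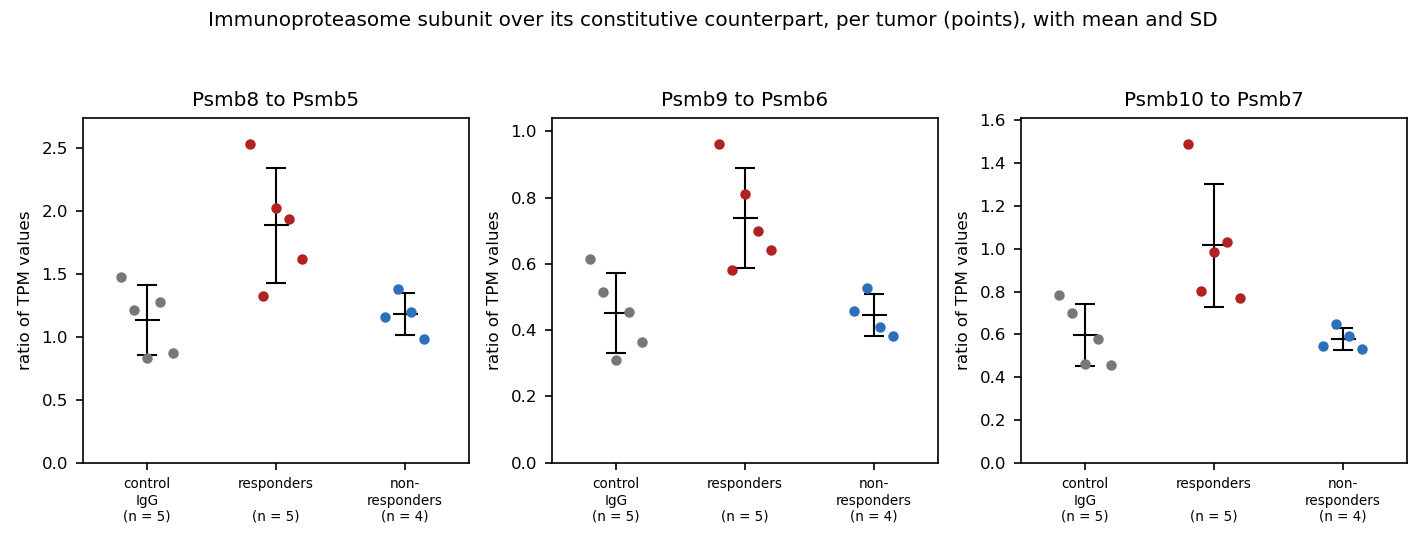
Each panel plots, per tumor, the TPM of an immunoproteasome subunit divided by that of its constitutive counterpart on a linear axis from 0, with the mean and SD of each group in black. Responders average 1.89, 0.739, and 1.02 in the 3 ratios, against 1.18, 0.445, and 0.578 in non-responders.

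Nlrc5, which activates transcription of class I genes, was the least abundant member. Nlrc5 was at 64.6, 34.2, 42.6, 49.0, and 38.7 CPM in the control IgG tumors, at 103, 58.8, 74.9, 80.8, and 60.6 CPM in the responders, and at 52.3, 47.6, 50.6, and 27.1 CPM in the non-responders. All 5 responders lay above all 4 non-responders, non-responder 33R was the lowest of the 14 tumors, and control 14L exceeded 2 responders. Nlrc5 rose by 1.70-fold against non-responders (log2 fold change 0.77, SE 0.22, adjusted p = 0.0442 by edgeR) and by 1.65-fold against controls (log2 fold change 0.72, SE 0.21, adjusted p = 0.0345 by edgeR).

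Non-responders and control IgG tumors did not differ past the threshold in any of the 10 genes. Fitted log2 fold changes ran from -0.12 (Tapbp) to 0.28 (Psmb8), 5 of 10 were above 0, and the median was -0.001, against 0.01 over all genes. By edgeR, 0 of the 10 members and 0% of all 16287 genes were called, the smallest adjusted p of a member being 0.931. At an unadjusted p under 0.05 there were 0 members and 758 genes, and DESeq2 called 18 genes, 13 higher and 5 lower, of which 0 were members. The 95% intervals were narrowest for H2-D1 (-0.15 to 0.27) and B2m (-0.22 to 0.22) and widest for Tapbp (-0.59 to 0.36). The difference between responders and controls lay inside the interval of the same gene for H2-D1, B2m, Psmb8 (-0.12 to 0.68), and Psmb9 (-0.28 to 0.61) and above it for the other 6 members.

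**Figure D4:**
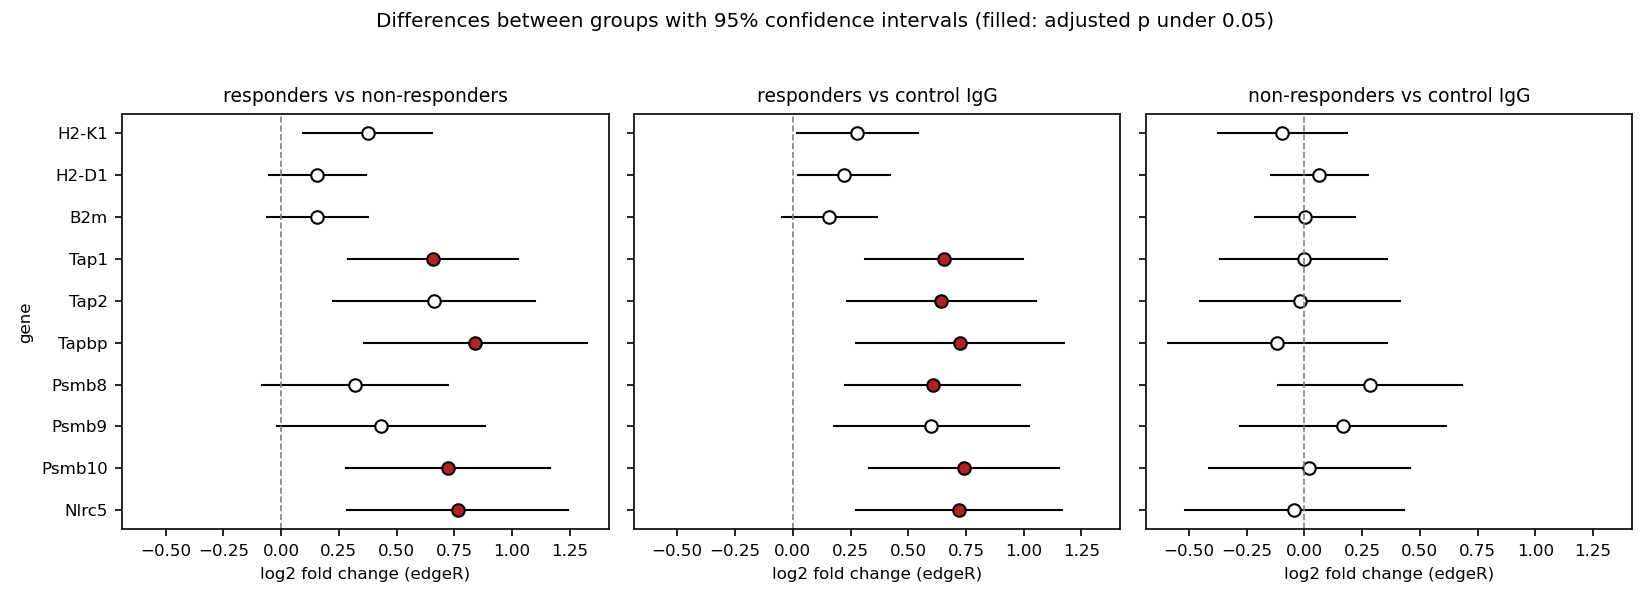
Points give the edgeR log2 fold change of each class I gene in the 3 comparisons and lines the 95% confidence interval, with filled points where the adjusted p was under 0.05. All 10 points lie above 0 in both comparisons with responders, where 4 and 6 are filled, and between -0.12 and 0.28 with none filled in non-responders against controls.

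The calls rested on few tumors. When tumors were removed 1 at a time, the number of members called against non-responders ranged from 0 to 6: it was 0 without 24L, 30L, 30R, or 33R, 2 without 17R, 32R, or 33L, and 6 without 26R. Calls over all genes went from 1612 to 569 without 24L, 1147 without 30L, 686 without 30R, 615 without 32R, and 793 without 33R. Without 17R and without 26R they were 1247 and 1417. They rose to 1774 without 33L and 1978 without 29L, where 2 and 3 members were called. Against controls the number of members ranged from 1 to 7. Only Tap1 was called without 20R or 24L, and Tap1 and Psmb10 without 16R, 17R, 30L, or 30R. Calls over all genes against controls fell from 2147 to 1190 without 20R, 1192 without 24L, and 1387 without 30R. They were 1571 without 17R, 1639 without 16R, and 1755 without 30L. Where 7 members were called, they were 3385 without 33R, 1944 without 14L, and 1921 without 26R. Tap1 against controls was the 1 member call that held with every tumor left out (edgeR adjusted p = 0.0106 to 0.0465). With the 2 tumors of a mouse summed into 1 library, 1 member, Nlrc5, was called against non-responders, whereas calls over all genes were 1710. The direction did not turn in any of these fits: all 10 log2 fold changes stayed above 0 in both comparisons with responders.

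**Figure D5:**
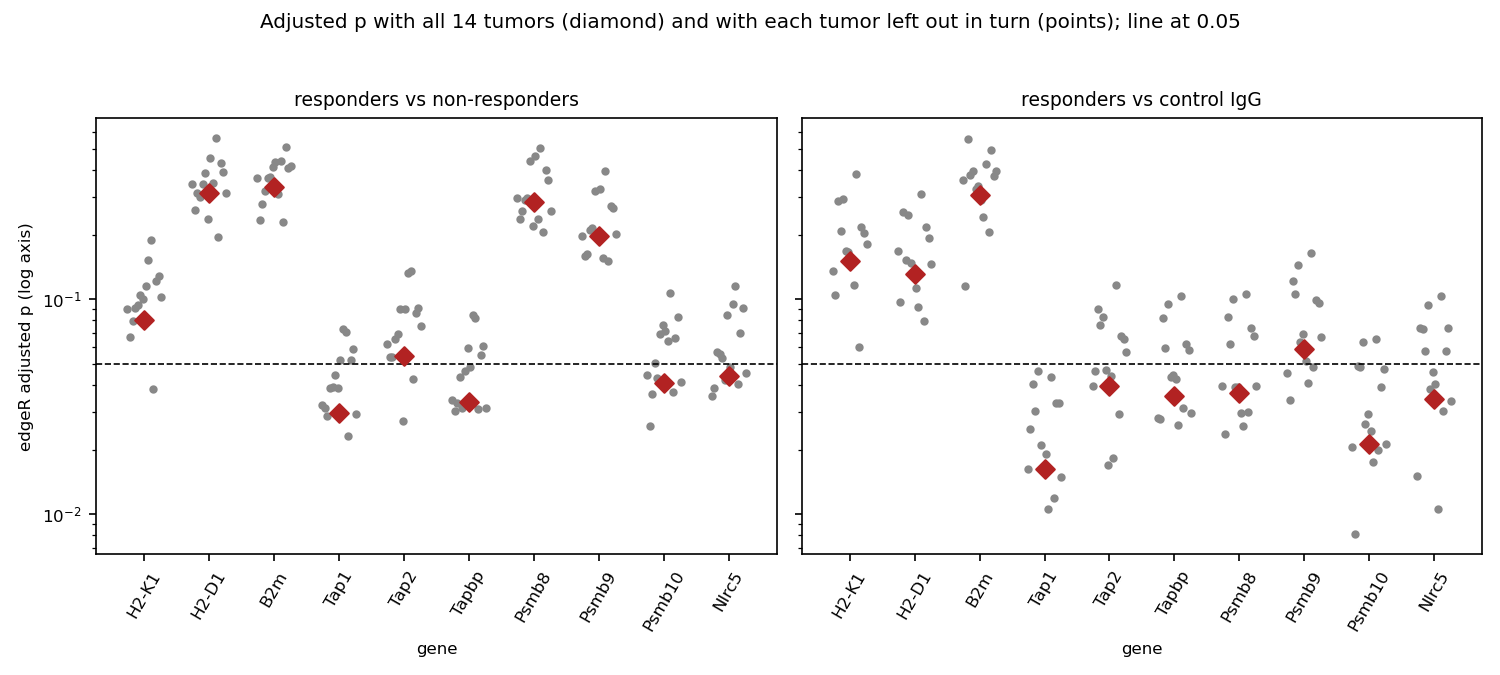
For each class I gene, the red diamond gives the edgeR adjusted p with all 14 tumors and the gray points the 14 values with 1 tumor left out, on a log axis with a line at 0.05. Only for Tap1 against control IgG do all points lie under the line, the highest being 0.0465.

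Mice with 2 tumors gave a view of the spread within a host. In responder mouse 30, the left and right tumors differed by at most 0.16 on the log2 scale in any member. In control mouse 14 they differed by up to 0.92, in Nlrc5, and in non-responder mouse 33 from -0.71 (Psmb9, higher in 33R) to 0.90 (Nlrc5, higher in 33L). In each of these 2 mice, only Nlrc5 differed by more than the largest difference between groups, 0.84. The median absolute difference over the 10 members was 0.12 in mouse 14 and 0.33 in mouse 33. The 2 tumors of mouse 33 were not ordered alike in all members: in 33R, Tap1, Tap2, Tapbp, and Nlrc5 were at 121, 88.9, 195, and 27.1 CPM, under the 33L values of 128, 113, 242, and 50.6 CPM, whereas Psmb8, Psmb9, and Psmb10 were at 201, 123, and 109.8 CPM, above 128, 75.6, and 85.4 CPM in 33L. H2-K1 was at 387 and 392 CPM in 33R and 33L, H2-D1 at 2351 and 2092 CPM, and B2m at 2263 and 1991 CPM. The constitutive subunits Psmb5, Psmb6, and Psmb7 were also higher in 33R, at 159, 154, and 233 CPM against 84.6, 88.3, and 153 CPM in 33L. All 3 ratios given above were lower in 33R than in 33L. Of the 14 tumors, 33R had the longest mean fragment length (287.83 bases, 278.23 in 33L) and the lowest TMM factor (0.917). Their part in these differences was not tested.

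Across the 14 tumors the members moved together, as a description without a test. Pearson's r between the log2 CPM of 2 members was 0.29 to 0.98 over the 45 pairs (median 0.83), and with the group means removed -0.14 to 0.98 (median 0.73). These points share libraries and their scaling. H2-K1 was most like the mean of the other 9 members within groups (r = 0.95) and Nlrc5 least (r = 0.34). Outside the class I lists, the genes most like the members among 12152 compared were Bak1, a mediator of apoptosis that lies on chromosome 17 (chr17:27019810-27029009), with r = 0.97, and Gbp2, Gbp10, Gbp3, and Gbp2b, guanylate-binding proteins of the interferon response, each with r = 0.96. These genes were picked by their correlation with the members over all 14 tumors, group differences included. Their differences between groups are therefore partly built into the choice and are no separate support. Bak1 had a log2 fold change of 0.21 against non-responders and was not called (edgeR adjusted p = 0.131). The 4 Gbp genes differed by 1.23 to 1.91 and were called, the weakest being Gbp3 (edgeR adjusted p = 0.0375). Of the 14 fits without 1 tumor, the calls against non-responders held in 12 for Gbp2, 12 for Gbp10, 7 for Gbp3, and 11 for Gbp2b, and each was lost without 24L.

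Other genes of the pathway were taken from 4 lists. Of 6 genes of peptide loading and trimming, 1 rose and 0 fell in each comparison with responders, where 5.08% and 7.88% of all genes rose. Tapbpl, a relative of tapasin that edits peptides, had CPM of 80.8, 50.1, 62.7, 67.2, and 52.4 in responders, all above the 45.8 CPM of the highest other tumor, control 14L. It differed by 0.76 against non-responders (edgeR adjusted p = 0.0134) and 0.79 against controls (edgeR adjusted p = 0.00368) on the log2 scale, and both calls held with each tumor left out. The general chaperones Calr, Canx, Pdia3, and Hspa5 had log2 fold changes of 0.08, 0.18, 0.07, and -0.17 against non-responders, and Erap1, the trimming peptidase, of 0.45 (edgeR adjusted p = 0.0608), none called. Of 7 proteasome partners, 0 were called in either comparison by edgeR. At an unadjusted p under 0.05 there were 2 against non-responders, Psmb5 and Psmb6, both lower in responders, and 0 against controls. Of all 16287 genes tested, 4525 and 4546 had an unadjusted p under 0.05 in these comparisons. Psme1 and Psme2, the subunits of the interferon-inducible activator, had log2 fold changes of 0.29 and 0.31 against non-responders (edgeR adjusted p = 0.219 and 0.281).

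Of 16 nonclassical class I and class I-like genes, 13 were tested. H2-T24 rose against non-responders (log2 fold change 0.88, SE 0.25, adjusted p = 0.0384 by edgeR) and against controls (log2 fold change 0.87, SE 0.23, adjusted p = 0.0233 by edgeR). H2-T23, the ligand of NKG2A, rose against controls (log2 fold change 0.71, SE 0.21, adjusted p = 0.0405 by edgeR), and 0 fell. That is 1 of 13 against non-responders, where 5.08% of all genes rose and 4.82% fell. Against controls it is 2 of 13, where 7.88% rose and 5.3% fell. The H2-T24 and H2-T23 calls were lost without 24L, among other tumors. The medians over the 13 were 0.30 and 0.25, against 0.01 and -0.01 over all genes, and reads of these paralogs may be divided among them. Of 18 regulators of class I transcription, 5 rose against non-responders and 4 against controls, where 5.08% and 7.88% of all genes rose, and 0 fell in either. Ifng, the inducing cytokine, was at 2.64, 0.991, 1.77, 1.51, and 1.02 CPM in responders and at most 0.683 CPM elsewhere, a 3.52-fold difference from non-responders (log2 fold change 1.81, SE 0.38, adjusted p = 0.0139 by edgeR). Irf1, which binds interferon response elements, rose by 0.91 on the log2 scale (edgeR adjusted p = 0.0190), the receptor chain Ifngr1 by 0.33 (edgeR adjusted p = 0.0101), and the kinase Jak1 by 0.38 (edgeR adjusted p = 0.0357) against non-responders. The calls of Ifng, Irf1, and Ifngr1 held with each tumor left out, and that of Jak1 was lost without 24L, 30L, 30R, or 32R. Against controls, Ifng, Irf1, Irf8, and Ifngr1 rose by 1.77, 0.76, 0.63, and 0.40 on the log2 scale (edgeR adjusted p = 0.00515, 0.0197, 0.0188, and 0.00115), with Irf1 and Irf8 lost without 20R or 24L. The factors Rfx5, Rfxap, Rfxank, Nfya, Nfyb, and Nfyc, which act with NLRC5 at class I promoters, had log2 fold changes of -0.08 to 0.27 against non-responders, and none was called.

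Per length, the members spanned a wide range of abundance, and their order was nearly the same in every tumor. Mean TPM over the 14 tumors was 4469 ± 680.2 for B2m (SD), which held rank 30 among the 16287 genes tested, 1705 ± 296 for H2-D1, 419.8 ± 105 for H2-K1, and 261 ± 80.2 for Psmb8. Tapbp (171 ± 78.2) and Psmb10 (166 ± 62.9) followed, then Psmb9 (117 ± 38.8), Tap1 (77.9 ± 30.2), Tap2 (73.8 ± 27.7), and Nlrc5 (18.4 ± 8.61). Each gene exceeded the next in all 14 tumors, except Tapbp over Psmb10, in 9 of 14, and Tap1 over Tap2, in 11 of 14, so that neither of these pairs had a fixed order.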

How the data were processed

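Gene-level tables of 14 tumors were used, grouped by their labels. Per the submitters' processing notes and methods, the authors aligned paired-end reads with STAR to mm10 and quantified genes with RSEM. The deposited expected counts estimate the fragments of each gene without normalization, and a fragment with several possible sources is shared out between genes. The TPM values that the authors deposited divide these by effective length and scale each tumor to 1 total. The FPKM values that the authors deposited were not used. The score columns of the files as deposited hold gene and effective lengths, which entered only the length offset and the mean fragment length of each tumor.

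For testing, expected counts were rounded and entered into edgeR 4.0.16 under R 4.3.3 (TMM, filterByExpr, quasi-likelihood test, all 14 tumors, no covariates, Benjamini-Hochberg adjustment over 16287 genes). The methods name DESeq2 for the cell lines and do not say whether it was used for the tumors. Log2 CPM used a prior count of 2. Ratios of TPM were compared by two-sided exact permutation tests. Alternatives used DESeq2 1.42.0 and limma 3.58.1. The fit was tested on simulated counts. No 2 tumors of a group agreed within sampling noise (lowest chi-square per gene 21.3).

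The members, lists, and motifs were chosen with earlier results of these data known. Genes named are the 10 members, genes of 4 pathway lists, marker genes, and the 5 genes with the highest correlation with the mean of the members. 1 regulator that is counted in its list is not reported here by name. Intervals cover the spread between tumors. Promoter windows came from RefSeq and coordinates from GENCODE M21.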

Additional observations from a re-analysis of the deposited data

Results flagged for a closer look

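Nlrc5 in non-responder 33R was at 4.76 on the log2 CPM scale, 5.58 being the next lowest value among the 4 non-responders. Its gap to that value was 0.857 of the range of the group, above the 95% critical value of Dixon's test for 4 samples. This was the 1 group marked among 39 groups of member levels and ratios, where chance marks about 1 in 20. Without 33R, Nlrc5 was not called against non-responders (edgeR adjusted p = 0.0951), and its log2 fold change between non-responders and controls was 0.12. Tumor 33R also had the longest mean fragment length of all tumors (287.83 bases), and the part of this in the Nlrc5 value was not tested.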

How the results depend on the processing

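The fitted log2 fold changes of all 10 members stayed above 0 against non-responders and against controls in every alternative tried, and no member was called between non-responders and controls in any. The 4 members called against non-responders became 1 with 1 library per mouse, 2 with only the 2 groups compared in the fit, 10 with log2(TPM + 1) and 10 with log2(TPM + 0.1), and 0 at an adjusted p under 0.01. Calls over all genes, 1612 with all tumors, were 1710, 689, 2160, 2104, and 151 in the same order. DESeq2 and limma-voom with mouse as a random effect each called 6 members, adding H2-K1 and Tap2, with 2634 and 2973 genes called. Plain limma-voom, upper quartile scaling, and the stricter filter each called 5, adding Tap2, with 1491, 1570, and 1662 genes called. The 6 called against controls became 0 at an adjusted p under 0.01 and stayed between 6 and 7 in the other alternatives that kept all tumors. Calls over all genes against controls, 2147 in the main fit, were 766 at an adjusted p under 0.01. In those other alternatives they ran from 1648 without a filter to 3043 with only the 2 groups compared. Leaving out 1 tumor gave 0 to 6 members against non-responders and 1 to 7 against controls, and leaving out 24L and 33R together, chosen after the values were seen, gave 0 and 2. Calls over all genes without 24L and 33R were 163 against non-responders and 2225 against controls. Over all genes, DESeq2 called 2634 against non-responders where edgeR called 1612. The median gene differed from 0 by over 0.1 on the TPM scale: by 0.17 with a pseudocount of 1 and by 0.24 with 0.1 against non-responders, by 0.12 with 0.1 against controls, and by -0.11 with 0.1 between non-responders and controls. With 1 value per mouse, the ratios of responders to non-responders were 0.591 (Psmb8 to Psmb5), 0.656 (Psmb9 to Psmb6), and 0.756 (Psmb10 to Psmb7) on the log2 scale, and of responders to controls 0.778, 0.806, and 0.84, none past the threshold with so few mice. Leaving out 1 tumor gave 0.539 to 0.774, 0.619 to 0.806, and 0.63 to 0.867 against non-responders and 0.62 to 0.854, 0.604 to 0.851, and 0.612 to 0.868 against controls. Between non-responders and controls the ratios and 7 members had values near 0 whose sign turned: the ratios ran from -0.0235 to 0.185, -0.116 to 0.13, and -0.107 to 0.0902 with 1 tumor left out, and Psmb10 to Psmb7 was 0.084 with 1 value per mouse. With 1 tumor left out, log2 fold changes ran from -0.0655 to 0.0641 for B2m, -0.126 to 0.0637 for Tap1, -0.27 to 0.106 for Tap2, -0.0857 to 0.164 for Psmb10, and -0.14 to 0.12 for Nlrc5. B2m was -0.00408 with DESeq2, -0.00996 with mouse as a random effect, -0.00408 with RLE size factors, -0.00885 without a filter, and -0.0023 with the stricter filter. With 1 library per mouse Tap1, Tap2, Tapbp, and Nlrc5 were 0.0877, 0.123, 0.0145, and 0.0524, and with upper quartile scaling Tap1 was 2.46e-06. On the TPM scale H2-D1, B2m, and Psmb10 were -0.0765, -0.0928, and -0.0616 with a pseudocount of 1, and -0.0765, -0.0928, and -0.0618 with 0.1. With the length offset B2m, Tap1, and Psmb10 were -0.086, 0.00639, and -0.0579, and without 24L and 33R B2m, Tap1, Tap2, Psmb10, and Nlrc5 were -0.0378, 0.0524, 0.105, -0.0536, and 0.119. The causes of these changes were not tested. No paired analysis was possible because no mouse gave tumors to 2 groups and the groups share no replicate number. The counts of every member are high enough that depth limited none of these values.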
